A study of Mus musculus with 8 samples.

Results

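The enzymes that make, use and burn pyruvate in the liver were followed at the transcript level in mice lacking RAP1, a telomeric protein encoded by Terf2ip that also binds outside telomeres. The set holds 38 genes: 3 enzymes that feed or divert pyruvate, 7 genes of the pyruvate dehydrogenase complex and its kinases, 2 malic enzymes, 5 enzymes of lactate, methylglyoxal and glyoxylate, 4 of acetate and acylphosphates, 5 aldehyde dehydrogenases and 12 genes of the citrate cycle. Members were chosen by symbol, as every probe other than controls whose accession maps to one of the 38 symbols, out of 19752 symbols named on the array. The rule itself uses no measured value, though the set was proposed with earlier results of these data known. All 38 had a probe, and 36 were among the 14066 genes bright enough to be tested.

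Total liver RNA came from 8 mice aged 10 weeks, 4 of genotype Rap1 -/- and 4 wild type, all on a mixed background of C57BL6/129SV (90%:10%). Each mouse was read on its own single-colour Agilent array. The knockout is constitutive in the whole body: a floxed allele was deleted by a cre under the EIIa promoter, which acts in the oocyte and early embryo, and the cre allele was later bred out of the colony. The study describes its young mice as females, and the labels give no feeding state, on which several of these enzymes are known to depend. In bulk liver RNA, fewer cells of a type and less RNA per cell cannot be told apart.

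Pyruvate stands at a branch point of liver metabolism. It is made from phosphoenolpyruvate by pyruvate kinase or from lactate by lactate dehydrogenase, is carboxylated to oxaloacetate in the fasted liver as the first step of glucose synthesis, or is oxidized to acetyl-CoA by the pyruvate dehydrogenase complex. Acetyl-CoA enters the citrate cycle in the mitochondria, while malic enzymes return malate to pyruvate and aldehyde dehydrogenases turn reactive aldehydes into acids.

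No member passed an adjusted p of 0.05. The smallest adjusted p among the 36 tested members was 0.770, and over all genes 0.0142% passed (2 of 14066). Those 2, named here after their values were seen, were Chst4 and Zfhx3, which are no members and were both lower in Rap1-deficient liver. The members' differences lay mostly on one side of 0 all the same. Differences are knockout minus wild type, on the log2 scale of the signal relative to the array's 75th percentile. Of the 36 members, 34 had a difference above 0 against 56.1% of all genes, and the median was 0.17 (range -0.10 to 1.74) against 0.02 for all genes. At an unadjusted p under 0.05, 5 members were higher (Me3, Aldh9a1, Dld, Suclg1 and Acyp2), against 4.01% of all genes, and 0 lower, against 2.35%. Me3 is counted there on a dim probe that its 4 knockout arrays alone would carry past the filter on background. The other 4 were well above background on all 8 arrays. Of these, Acyp2 is dim too, at a mean of -3.52 in wild type and -3.15 in knockout. In 5 members (Dld, Pdhx, Aldh9a1, Dlst and Suclg1) all 4 knockout arrays lay above all 4 wild-type arrays, which held for 3.01% of all genes, and in 0 members did they all lie below, against 1.30%.

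The differences were small. Taking each gene's interval by itself, the 95% interval of 27 of the 36 members lay within a 1.5-fold change in either direction, and that of 35 within a 2-fold change, with Me3 as the exception. A difference of under 0.1 in size was found in 10 members (42.7% of all genes), one above 0.2 in 16 (15.5% of all genes) and one above 0.3 in 6 (7.03% of all genes). Most members are bright. Of the 36, 29 fell among the brightest 4689 of the 14066 genes, where 64.4% of genes had a difference above 0 and the median was 0.05, while 28 of those 29 members were above 0, with a median of 0.19.

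**Figure D1:**
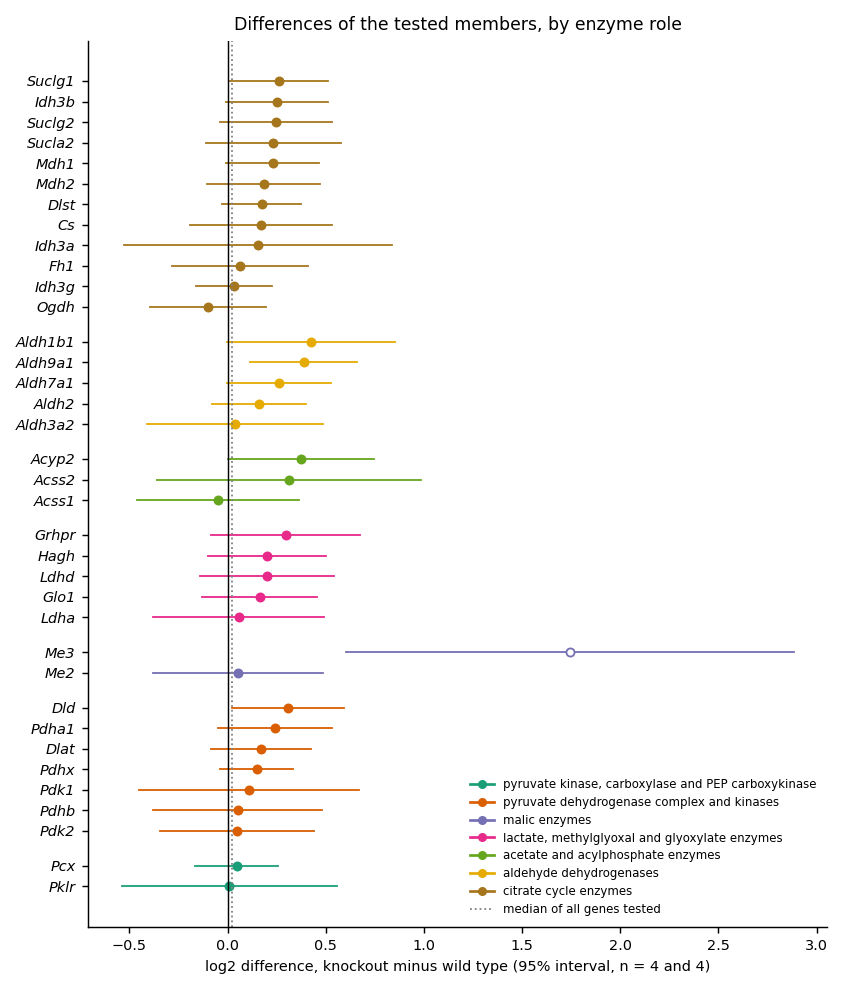
Differences of the 36 tested members on the log2 scale (x axis, knockout minus wild type, 4 arrays each), 1 row per gene and coloured by enzyme role; bars are 95% intervals, the dotted line is the median of all genes tested (0.02), and the open point marks Me3, whose probe was well above background on only 2 of 4 wild-type arrays. Of the 36 points, 34 lie right of 0, and 5 intervals lie wholly above it.

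The targeted gene was read by a pair of Terf2ip probes. One of them was at background in all 4 knockout arrays, at least 18.96-fold lower than in wild type (adjusted p over probes 7.09e-06). The other was higher in knockout, at a mean of 0.29 against -0.92 in wild type (difference 1.20, adjusted p over probes 0.127). This other probe was the brighter of the pair over the 8 arrays. The test over genes therefore read Terf2ip on it, and not on the probe that lost its signal. The share of probes well above background ran from 50.03% to 65.3% over the 8 arrays, with 0 saturated spots. Each of 2 slides held 2 arrays of each genotype, with wild type in positions 1 and 2 and knockout in positions 3 and 4, so position on the slide and genotype cannot be told apart. The 75th percentile of signal was 179 to 209 in wild-type arrays and 220 to 227 in knockout arrays, and the part of this gap in the values was not tested. The 8 hepatocyte markers gave a summed signal of 5899 to 6485 times the 75th percentile in wild type and 5435 to 5686 in knockout, which do not overlap. Their median difference was -0.00, with 4 of 8 above 0. The 9 Kupffer cell markers had 0 of 9 differences above 0 (median -0.17; summed signal 197 to 272 in wild type and 154 to 261 in knockout), and the 6 cholangiocyte markers 4 of 6 (median 0.41; 3.48 to 4.96 and 4.25 to 8.31). Of the 6 neutrophil markers 4 were tested, with 0 above 0 (median -0.42; 6.83 to 17.7 and 6.40 to 10.04). Ltf was well above background on no array. The 7 markers of T and NK cells had 0 of 5 tested differences above 0 (median -0.14; 39.1 to 63.9 and 38.9 to 48.6). The summed signals of these 4 lists and of the 5 further ones overlapped between genotypes. At an unadjusted p under 0.05, 2 cholangiocyte markers and 1 stellate cell marker were higher (4.01% of all genes were). At that threshold 1 marker each of hepatocytes, sinusoidal endothelial cells and T and NK cells was lower (2.35% of all genes). The part of any of these in the members' differences was not tested.

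The enzymes that feed pyruvate or divert it to oxaloacetate had the smallest median difference of the 7 groups, 0.03 over 2 tested genes. Pklr, the liver pyruvate kinase, read 1.57, 2.21, 1.58 and 0.96 in the 4 wild-type arrays and 1.74, 1.35, 1.45 and 1.80 in the knockout arrays. The groups overlapped, with the highest and the lowest values both in wild type, and the difference was 0.01 (95% interval -0.54 to 0.56, adjusted p 0.999). Pcx, pyruvate carboxylase, read 6.57, 6.71, 6.59 and 6.54 in wild type and 6.73, 6.51, 6.67 and 6.69 in knockout. This was among the tightest members: its arrays spanned little in either genotype, and its difference was 0.05 (95% interval -0.16 to 0.26). Pck2, the mitochondrial phosphoenolpyruvate carboxykinase, was well above background on none of the 8 arrays and was not tested.

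The 7 genes of the pyruvate dehydrogenase complex and its kinases all had differences above 0, with a median of 0.15. None passed the adjusted test. The median was 0.23 without wild-type replicate 2, and 0.13 within slide 2 and with quantile normalization, alone or after normexp background correction. Those above 0 numbered 5 with quantile normalization alone, within slide 1 and without wild-type replicate 4. They numbered 6 with normexp, within slide 2 and without knockout replicate 1 or 4 or wild-type replicate 1. Dld, the dihydrolipoamide dehydrogenase that this complex shares with the 2-oxoglutarate dehydrogenase complex, had the largest difference of the 7. Its signal was 2.67, 2.90, 2.97 and 3.07 in wild type and 3.10, 3.45, 3.08 and 3.22 in knockout. Every knockout array lay above every wild-type array, by a narrow margin, and the difference was 0.31 ± 0.13 (SE; adjusted p 0.770, two-sided exact permutation p 0.0286, the smallest that 4 against 4 arrays allow). A second Dld probe had a difference of 0.40. Within slide 1 the Dld difference was 0.49 and within slide 2 it was 0.13.

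Pdhx, which tethers Dld to the core of the complex, read 0.95, 0.83, 0.89 and 0.94 in wild type and 1.09, 1.05, 1.03 and 1.02 in knockout. The groups did not overlap, and the difference was 0.15 (95% interval -0.04 to 0.33; exact permutation p 0.0286, adjusted p 0.801). Groups that do not overlap always give this permutation p, so it adds nothing to the non-overlap, in Pdhx or in other members. The other core genes had overlapping groups. Pdha1, the alpha subunit of the pyruvate dehydrogenase step that the kinases phosphorylate, differed by 0.24 (95% interval -0.05 to 0.53), and Dlat, the acetyltransferase core, by 0.17 (95% interval -0.08 to 0.43). Pdhb, the beta subunit, differed by 0.05, and its second probe by 0.02.

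The kinases switch the complex off by phosphorylating it. Pdk2, a kinase found in most tissues, read 3.62, 3.43, 3.77 and 3.17 in wild type and 3.81, 3.19, 3.50 and 3.68 in knockout, with a difference of 0.05 (95% interval -0.34 to 0.44). Pdk1 read 2.27, 2.67, 2.43 and 1.77 in wild type and 2.66, 1.78, 2.63 and 2.52 in knockout. Each genotype held 1 low Pdk1 array, wild-type replicate 4 and knockout replicate 2, and the difference was 0.11 (95% interval -0.45 to 0.67).

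**Figure D2:**
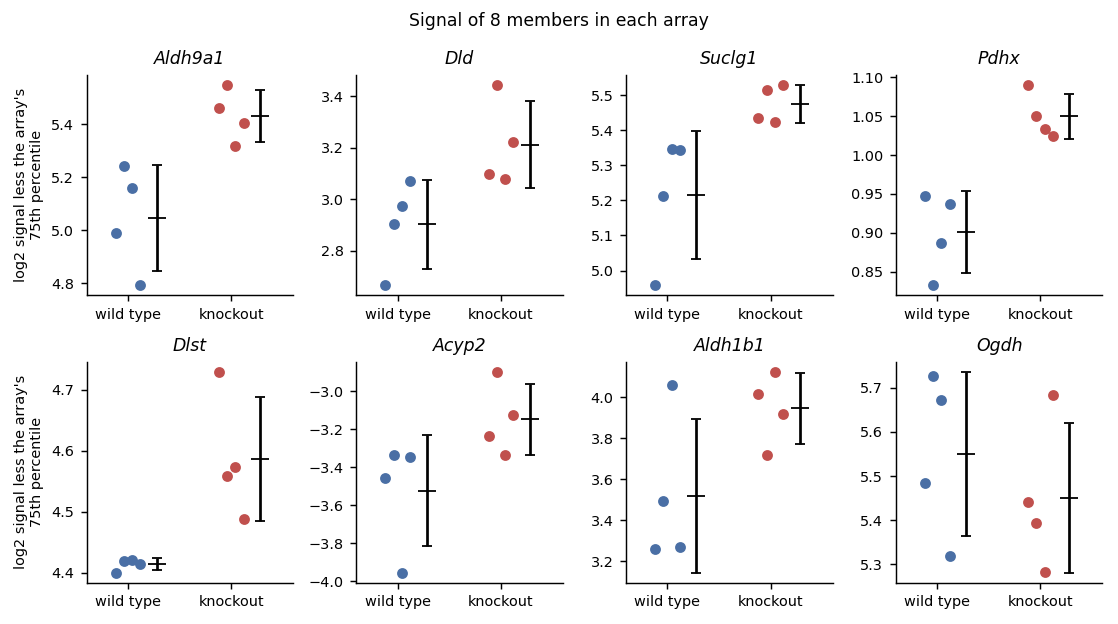
Signal of 8 members in each of 8 arrays (y axes, log2 relative to the array's 75th percentile, 1 scale per panel), wild type in blue and knockout in red; black bars are the mean and SD of 4 arrays. The groups do not overlap in the first 5 panels (Aldh9a1, Dld, Suclg1, Pdhx and Dlst) and overlap in Acyp2, Aldh1b1 and Ogdh.

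The malic enzymes held the largest and one of the smallest differences of the set. Me3, a mitochondrial NADP-dependent malic enzyme, read -3.45, -5.00, -3.47 and -4.84 in wild type and -2.60, -1.39, -3.46 and -2.35 in knockout. Knockout replicate 3 lay among the wild-type values, so the groups overlapped, and wild-type replicates 2 and 4 were not well above background. The difference was 1.74 ± 0.50 (SE), with an adjusted p of 0.770 and an exact permutation p of 0.0571. With 2 of 4 wild-type arrays at background, the size of this difference is not well measured. It depended on the probe and on how the background was treated. A second Me3 probe, well above background on the same numbers of arrays, differed by 0.19 (SE 0.31), and another was well above background on no array. In wild type the second probe passed on replicates 2 and 4, the arrays where the reported probe did not. The second probe was the brighter in wild type (mean -3.68 against -4.19) and the dimmer in knockout (-3.49 against -2.45). The reported probe was thus kept as the brightest through its knockout values, so its choice was not independent of genotype. With normexp background correction, which adds an offset of 50 to the signal, and quantile normalization, the difference was 0.49, and with the mean over both tested probes it was 0.96 (adjusted p 0.329).

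Me2, the mitochondrial malic enzyme that can use NAD, read -1.73, -1.46, -2.03 and -1.26 in wild type and -1.92, -1.58, -1.40 and -1.36 in knockout, and differed by 0.05 (95% interval -0.38 to 0.49). The change of Me3 less the change of Me2 was 1.69 on the log2 scale, but the groups overlapped (SD 1.15 in wild type and 0.93 in knockout). Me1, the cytosolic malic enzyme, was no member and differed by -0.04 (SE 0.27).

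**Figure D3:**
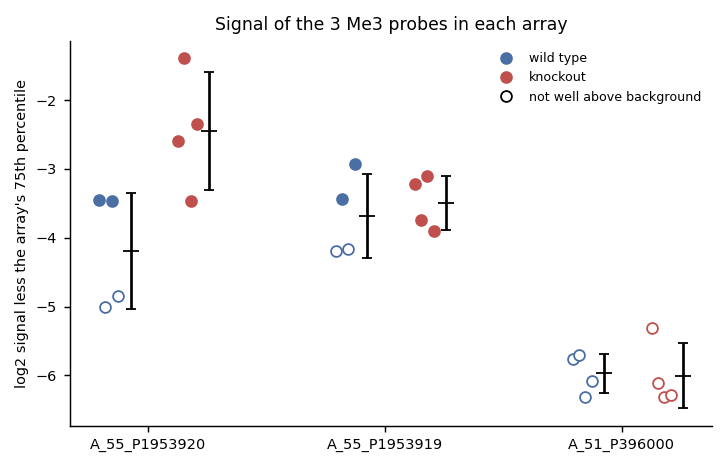
Signal of the 3 Me3 probes in each array (y axis, log2 relative to the array's 75th percentile), wild type in blue and knockout in red; open points are not well above background, and black bars are the mean and SD of 4 arrays. The groups stand 1.74 apart on the left probe, 0.19 apart on the middle one, and all 8 arrays are at background on the right one.

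The 5 enzymes of lactate, methylglyoxal and glyoxylate had differences between 0.06 and 0.30, all with intervals that include 0. Their median was 0.20, and 0.11 without wild-type replicate 2, 0.06 within slide 2 and 0.10 with normexp and quantile normalization. Ldha, the A subunit of lactate dehydrogenase, read 8.29, 8.39, 8.08 and 8.78 in wild type and 8.05, 8.78, 8.55 and 8.38 in knockout. The groups overlapped over nearly their whole range, the difference was 0.06 (95% interval -0.38 to 0.49), and its other probes gave 0.05 and -0.18. Grhpr, which reduces glyoxylate and hydroxypyruvate, read 2.03, 1.80, 2.08 and 2.14 in wild type and 1.95, 2.74, 2.28 and 2.27 in knockout, where replicate 2 was high and replicate 1 lay inside the wild-type range. It differed by 0.30 (95% interval -0.08 to 0.68), and by 0.15 without knockout replicate 2.

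Ldhd, a mitochondrial D-lactate dehydrogenase, differed by 0.20. The pair that detoxifies methylglyoxal through glutathione differed by 0.16 (Glo1, glyoxalase I) and 0.20 (Hagh, the hydrolase that releases D-lactate). Hagh was tight in knockout liver, at 6.23 ± 0.02 (SD, n = 4) against 6.03 ± 0.26 in wild type.

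Among the enzymes that activate acetate, the cytosolic form lay above 0 and the mitochondrial form just below it. Within slide 1 both lay below 0 (-0.02 and -0.41), and within slide 2 both lay above it (0.65 and 0.31). Acss2, the acetyl-CoA synthetase of cytosol and nucleus, read 5.77, 6.31, 6.27 and 4.90 in wild type and 6.22, 5.81, 6.31 and 6.16 in knockout, and differed by 0.31 (95% interval -0.36 to 0.98). Wild-type replicate 4 was the lowest array by far, and within slide 1, which does not hold it, the difference was -0.02. Acss1, the mitochondrial form, read -1.76, -1.40, -1.75 and -1.77 in wild type and -1.99, -1.97, -1.24 and -1.67 in knockout, and differed by -0.05 (95% interval -0.46 to 0.37). The changes of the 2 forms differed by -0.36, and the groups overlapped.

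The acylphosphatases remove phosphate from acylphosphates such as the acetyl phosphate that stands beside pyruvate in pathway charts. Acyp2 read -3.46, -3.34, -3.95 and -3.34 in wild type and -3.23, -2.90, -3.34 and -3.12 in knockout. The lowest knockout array sat at the top of the wild-type range, so that the groups just overlapped, and the difference was 0.37 ± 0.16 (SE; adjusted p 0.780, exact permutation p 0.0571). It was 0.23 without wild-type replicate 3, 0.15 with normexp or the authors' table and 0.59 with quantile normalization alone. The Acyp2 probe is dim, and its SE rose to 0.24 with trend and robust variance. Acyp1 was above background on 2 wild-type arrays and 1 knockout array and was not tested.

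The aldehyde dehydrogenases had a median difference of 0.26, with 5 of 5 above 0. It was 0.16 with the mean of all probes of a gene and 0.12 within slide 2, and its place among the groups of enzymes changed with such settings. Aldh9a1, which oxidizes aminoaldehydes on the way to carnitine and GABA, read 4.99, 5.24, 5.16 and 4.79 in wild type and 5.46, 5.55, 5.32 and 5.40 in knockout. The groups did not overlap, and the difference was 0.39 ± 0.12 (SE; 95% interval 0.11 to 0.66, exact permutation p 0.0286, adjusted p 0.770). It was 0.39 within either slide, between 0.33 and 0.55 under the other ways of processing, and between 0.30 and 0.45 with an array left out.

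Aldh1b1, a mitochondrial enzyme of acetaldehyde and retinaldehyde, read 3.26, 3.49, 4.06 and 3.27 in wild type and 4.02, 3.72, 4.12 and 3.92 in knockout. Wild-type replicate 3 reached the knockout range, and the difference was 0.43 (95% interval -0.00 to 0.85, adjusted p 0.780). Aldh7a1, an enzyme of lysine breakdown, differed by 0.26 (95% interval -0.00 to 0.53) on its bright probe and by -0.09 on a dim one. Aldh2, the mitochondrial enzyme that clears acetaldehyde from ethanol, differed by 0.16 (95% interval -0.08 to 0.40), with 7.06 ± 0.06 in knockout and 6.89 ± 0.16 in wild type (SD, n = 4 each). Aldh3a2, the fatty aldehyde dehydrogenase of the endoplasmic reticulum, read 2.63, 3.15, 2.76 and 3.14 in wild type and 3.22, 2.47, 2.94 and 3.21 in knockout, a difference of 0.04 (95% interval -0.41 to 0.49).

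The 12 citrate cycle genes had 11 differences above 0, with a median of 0.18 and a range from -0.10 to 0.26. Without wild-type replicate 1 the median was 0.10 with 9 of 12 above 0, and it was 0.30 within slide 1, 0.10 within slide 2 and 0.11 with normexp or the authors' table. At the entry, Cs, citrate synthase, differed by 0.17 (95% interval -0.19 to 0.53). The 3 subunits of NAD-dependent isocitrate dehydrogenase gave 3 different values: Idh3b, a regulatory subunit, differed by 0.25 (95% interval -0.01 to 0.51), Idh3a, the catalytic subunit, by 0.16 (95% interval -0.53 to 0.84) and Idh3g, the other regulatory subunit, by 0.03 (95% interval -0.16 to 0.23). Idh3g was tight, at 5.23, 5.25, 5.21 and 5.10 in wild type and 5.21, 5.18, 5.24 and 5.29 in knockout. The change of Idh3b less that of Idh3a was 0.10 and of Idh3g less Idh3a was -0.12, and in both the groups overlapped, so that the subunits were not told apart.

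The 2-oxoglutarate dehydrogenase complex was the one place in the cycle where members lay on both sides of 0. Ogdh, its first enzyme, read 5.49, 5.73, 5.67 and 5.32 in wild type and 5.44, 5.39, 5.28 and 5.68 in knockout. It differed by -0.10 (95% interval -0.40 to 0.19), its other probes by -0.02 and -0.02, and it was the only tested member below 0 within both slides. Dlst, the succinyltransferase core of the same complex, read 4.40, 4.42, 4.42 and 4.41 in wild type, an SD of 0.01, and 4.73, 4.56, 4.57 and 4.49 in knockout. Its groups did not overlap, and its difference was 0.17 (95% interval -0.03 to 0.37, exact permutation p 0.0286, adjusted p 0.789), and 0.11 with normexp or within slide 2. Whether Dlst and Ogdh differed from each other in their change was not tested.

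Succinyl-CoA ligase joins 1 shared alpha subunit to a GTP- or an ATP-specific beta subunit. Suclg1, the alpha subunit, read 4.96, 5.21, 5.35 and 5.34 in wild type and 5.43, 5.51, 5.42 and 5.53 in knockout, with no overlap, and differed by 0.26 ± 0.11 (SE; exact permutation p 0.0286, adjusted p 0.776). Wild-type replicate 1 was the lowest array, and without it the Suclg1 difference was 0.17. Within slide 1 it was 0.39 and within slide 2 it was 0.13. The beta subunits gave like values, 0.25 for the GTP-specific Suclg2 and 0.23 for the ATP-specific Sucla2. Sucla2 less Suclg2 changed by -0.01 (SD 0.10 in wild type and 0.19 in knockout), with overlapping groups.

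In the last steps, Fh1, fumarase, differed by 0.06 (95% interval -0.28 to 0.41). The malate dehydrogenases of cytosol and mitochondria carry reducing equivalents across the inner membrane together. Mdh1, the cytosolic enzyme, read 6.61, 6.71, 6.75 and 6.71 in wild type and 7.08, 6.97, 6.71 and 6.95 in knockout, where replicate 3 alone lay in the wild-type range, and differed by 0.23 (95% interval -0.01 to 0.47). Mdh2, the mitochondrial enzyme, differed by 0.19 (95% interval -0.10 to 0.47), and Mdh1 less Mdh2 changed by 0.05, with overlapping groups.

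The groups of enzymes were compared array by array as the median, over a group's genes, of the signal less the gene's own mean over 8 arrays. For the aldehyde dehydrogenases this was -0.31, -0.24, 0.03 and -0.07 in wild type and 0.22, 0.08, 0.08 and 0.18 in knockout. For the pyruvate dehydrogenase complex and its kinases it was -0.18, 0.03, -0.08 and -0.04 against 0.09, 0.08, 0.02 and 0.17. For the citrate cycle it was -0.30, -0.07, 0.04 and -0.04 against 0.10, 0.15, 0.02 and 0.17. Knockout and wild type did not overlap in the aldehyde dehydrogenases or in the malic enzymes. How often other groups of genes do not overlap in this way was not counted. The malic group is 2 genes that each overlapped singly. Its gap rests on Me3, whose probe was kept through its knockout values, so it is no support for a difference of the group. For the malic enzymes, where Me3 is not well measured, wild type was at -0.14, -0.77, -0.29 and -0.59. Knockout was at 0.20, 0.97, 0.03 and 0.60. The genotypes overlapped through knockout replicate 3 in the citrate cycle and pyruvate dehydrogenase groups. The lactate, methylglyoxal and glyoxylate enzymes overlapped more widely, at -0.13, -0.24, -0.08 and 0.07 in wild type and -0.16, 0.27, 0.12 and 0.10 in knockout. The smaller groups of acetate enzymes and of pyruvate kinase and carboxylase overlapped too, with knockout replicate 2 at -0.16 and -0.17. Whether the groups of enzymes differ from each other was not tested.

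One wild-type array stood low across the set. In wild-type replicate 1, 2 of the 36 tested members lay above their own 8-array mean and the median deviation was -0.19, while the other wild-type arrays had 12 to 17 members above and the knockout arrays 24 to 32. Over all genes that array's median deviation was -0.07. Without it, 30 members had differences above 0 (51.8% of all genes did) and the median was 0.14. In that setting 2 members had an unadjusted p under 0.05 (2.70% of all genes were higher at that threshold).

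**Figure D4:**
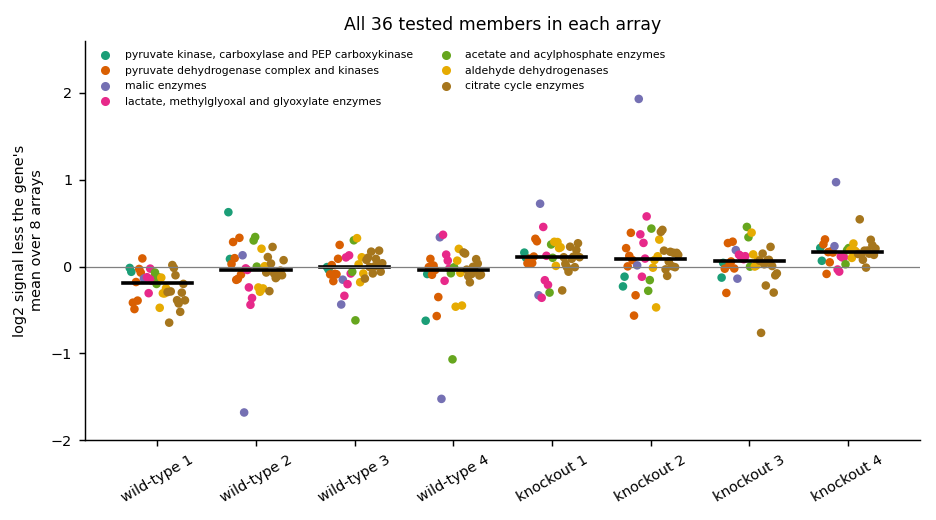
Signal of each of the 36 tested members less its own mean over 8 arrays (y axis, log2), by array and coloured by enzyme role; black bars are medians. The 4 knockout medians run from 0.06 to 0.17 and the 4 wild-type medians from -0.19 to -0.01, with wild-type replicate 1 the lowest.

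The shift of the set was of one sign under each way of processing tried, and its size moved. Blocks by slide or replicate and other variance models leave each difference, and so the median, as it is by construction. The members' median lay between 0.12 and 0.33. The highest value came with the array median in place of the 75th percentile, a scaling that moved the median of all genes to 0.18. This scaling adds the same amount to every gene's difference. The members therefore stood 0.15 above all genes there by construction, as on the reported scale. That scaling also moved the split of all genes at an unadjusted p under 0.05 from 63.1% to 89.96% on the higher side. Within slide 1, 26 of 36 members were above 0 (57.4% of all genes) with a median of 0.26, and within slide 2, 31 were (52.8% of all genes) with a median of 0.12. Of the 36, 22 were above 0 within both slides and 1 was below 0 within both. The share of all genes above 0 within both slides was not counted, so no agreement between slides is read from this.

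**Figure D5:**
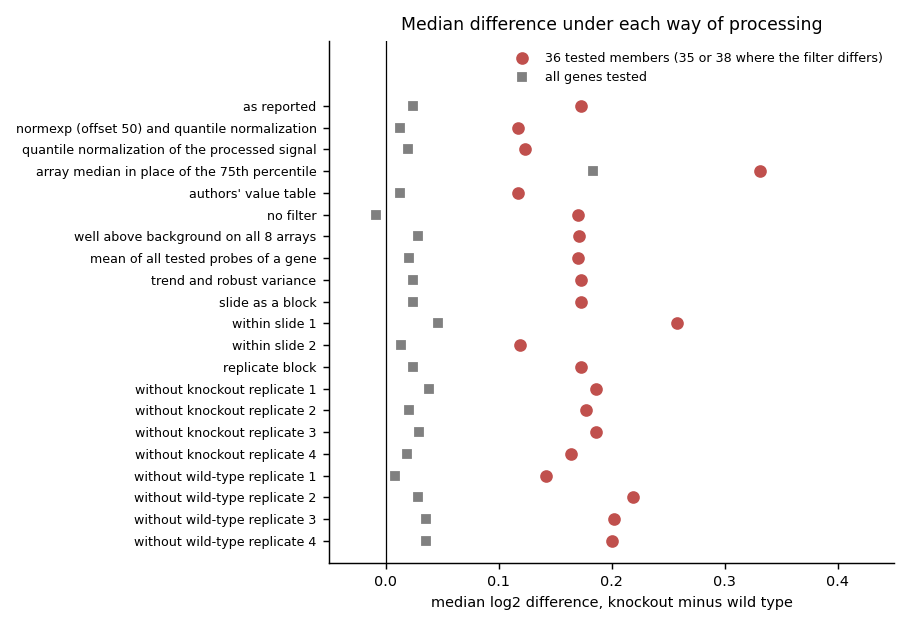
Median log2 difference (x axis, knockout minus wild type) of the tested members (red) and of all genes tested (grey) under each way of processing and with each array left out. The red points lie between 0.12 and 0.33 and each lies right of its grey point.

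The neighbouring genes of the pathway, from a list of 31 that are no members, were read for comparison. Of the 28 tested, 0 passed the adjusted p, 20 had differences above 0 (56.1% of all genes did), and the median was 0.12. At an unadjusted p under 0.05, 3 were higher (4.01% of all genes) and 0 lower (2.35%): Acat1, the mitochondrial acetoacetyl-CoA thiolase (0.37, SE 0.09), Mpc1, a subunit of the mitochondrial pyruvate carrier (0.25, SE 0.10), and Acat2, the cytosolic thiolase (0.25, SE 0.11). Pck1, the cytosolic phosphoenolpyruvate carboxykinase, differed by -0.24 (SE 0.37). Pdk4, the kinase induced by fasting, differed by 0.34 (SE 0.44), and the 4 succinate dehydrogenase subunits by 0.04 to 0.24.

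Promoter sequence was read for what the members share beside their names. RefSeq promoters (GRCm38.p6, from 250 bases before to 50 after a start) matched 34 of the 38 members with 46 windows. The search covered both strands for TTAGGG, the telomere repeat unit that the study names in RAP1 binding, and for 2 tandem units of it, TTAGGGTTAGGG, which contain the single unit. It also covered the CCAAT box (CCAAT), the ETS core motif (spelled CGGAAG), the NRF1 core motif (spelled TGCGCA) and a nuclear receptor element (spelled AAGGTCA), none of which contains another. The CCAAT box was found in 29 of the 46 windows against 37.4% of all 32851 promoters, the ETS core in 13 against 16.9%, the NRF1 core in 7 against 7.76%, and the nuclear receptor element in 1 against 4.72%. The single repeat unit was found in 4 windows, of Acss1, Fh1, Grhpr and Pklr, against 10.6% of all promoters, and the tandem in 0 against 0.012%. A match of letters is a description and not a site.

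The last 50 bases before the start are shown for Pklr (chr3:89136092-89136141, + strand) and Grhpr (chr4:44981344-44981393, + strand), since these hold the repeat unit upstream of the start, with the unit or its reverse complement in capitals.
Pklr: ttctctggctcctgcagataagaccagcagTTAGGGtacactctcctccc
Grhpr: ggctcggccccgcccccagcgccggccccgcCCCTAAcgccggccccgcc

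The last 100 bases before the start follow for the 5 members with an unadjusted p under 0.05, which are Dld (chr12:31351472-31351571, - strand), Me3 (chr7:89632718-89632817, + strand), Acyp2 (chr11:30649397-30649496, - strand), Aldh9a1 (chr1:167349891-167349990, + strand) and Suclg1 (chr6:73248405-73248504, + strand). Capitals mark any of the searched motifs, here the CCAAT box or its reverse complement in Dld and Aldh9a1 and none in the other 3 stretches.
Dld: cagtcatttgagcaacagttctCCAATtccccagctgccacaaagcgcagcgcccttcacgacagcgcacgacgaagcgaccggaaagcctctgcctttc
Me3: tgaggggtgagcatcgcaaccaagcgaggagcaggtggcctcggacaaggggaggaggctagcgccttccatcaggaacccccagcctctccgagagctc
Acyp2: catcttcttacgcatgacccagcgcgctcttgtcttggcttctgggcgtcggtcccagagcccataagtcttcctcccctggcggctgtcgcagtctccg
Aldh9a1: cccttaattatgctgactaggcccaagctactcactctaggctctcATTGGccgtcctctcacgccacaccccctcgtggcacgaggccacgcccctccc
Suclg1: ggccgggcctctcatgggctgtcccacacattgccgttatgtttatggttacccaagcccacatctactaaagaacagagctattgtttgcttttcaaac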

How the data were processed

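Spots were read per the file headers with Agilent Feature Extraction 10.7.3.1 as linear intensity. The deposited processed signal is this intensity after background subtraction, without scaling of one array to another. A deposited table holds the authors' own log2 values, for which the submitters' processing notes name limma. It matched normexp correction with an offset of 50 and quantile normalization of the scanner values (median absolute difference 0.00154 on the log2 scale, 99.5% of values within 0.05), so it carries no centring of genes.

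Each array held 62976 spots, 59305 of them no controls, for 55681 probes. Outlier spots were left out and repeated spots averaged. Values are log2 of the processed signal less the 75th percentile of the array. RefSeq accessions (GRCm38.p6) named 26056 probes. Probes well above background on at least 4 of 8 arrays were tested (31068), with the brightest tested probe for a gene (14066 genes). The groups were compared with limma 3.58.1 in R 4.3.3, without covariates, and p-values adjusted by Benjamini-Hochberg over all genes. Adjusted p-values and intervals are limma's. Exact permutation tests were two-sided over the 70 ways to part 8 arrays. Where a probe was at background on every array of a genotype, dim values were set no lower than the dimmest probe well above background on that array, and the fold is given as a lower limit. The procedure was tested on simulated data. The number of arrays limits the precision.

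The members and gene lists were chosen with earlier results of these data known. Array values are given for every member with an unadjusted p under 0.05 or groups that do not overlap and for the largest and smallest difference of each of the 7 groups. Pdk1, Acss2, Ogdh and Mdh1 were added after their values were seen. Outside the set, the rule named Terf2ip and list genes with an unadjusted p under 0.05, and Me1, Pck1, Pdk4 and the succinate dehydrogenase subunits were added. Replicate numbers do not pair mice: deviations of same-numbered arrays correlated from -0.18 to 0.10. Alternatives were other normalizations, filters, probe choices, variance models and blocks, each slide alone and each array left out. The scanner files used here give the median and not the mean signal of a spot, so normexp was run on the median.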

Additional observations from a re-analysis of the deposited data

Results flagged for a closer look

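The 36 tested members gave 72 sets of 4 arrays, and in 3 of them 1 array stood apart from the other 3 by more than the 95% limit of Dixon's test, which chance passes in about 1 of 20 sets. Pdk1, a kinase of the pyruvate dehydrogenase complex, was low in knockout replicate 2, at 1.78 against 2.52 for the next array. Acss1, the mitochondrial acetyl-CoA synthetase, was high in wild-type replicate 2, at -1.40 against -1.75. Idh3a, the catalytic subunit of isocitrate dehydrogenase, was low in wild-type replicate 1, at 1.76 against 2.48, in the array where 2 of the 36 members lay above their own mean over 8 arrays.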

How the results depend on the processing

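No member passed an adjusted p of 0.05 under any of the 20 alternatives. The members above 0 numbered 26 to 36, while 47.6% to 84.3% of all genes were above 0. The count of 36 came with the array median, which also gave the 84.3%. Genes past the adjusted p numbered 2 as reported and with the array median. They numbered 3 with the mean of all probes and with trend and robust variance. With normexp, with the authors' table, within slide 1 and with a replicate block they numbered 0. They numbered 1 with quantile normalization, no filter, the filter on all 8 arrays, the slide block, within slide 2 and with each array left out. Members with an unadjusted p under 0.05 numbered 5 as reported and with the replicate block, all higher (4.01% and 3.55% of all genes were), 3 with quantile normalization (3.69%) or no filter (2.37%), 9 with the array median (6.18%), 8 with trend and robust variance (4.46%), 2 within slide 1 (1.96%), 0 within slide 2 (1.84%) and 2 to 7 with an array left out (2.70% to 4.00%; 2 without knockout replicate 4 or wild-type replicate 1, 3 without knockout replicate 2 or wild-type replicate 2). Members whose groups do not overlap numbered 5 as reported, 2 with normexp or the authors' table (knockout lay above in 2.05% and 2.02% of all genes), 21 within slide 1, 18 of them higher (21.2%), and 16 within slide 2, all higher (16.4%), where 2 arrays meet 2, and 5 to 11 with an array left out, all higher (4.03% to 5.62%; 11 without knockout replicate 3, 10 without wild-type replicate 3, 8 without knockout replicate 1). The members' median moved from 0.17 to 0.33 with the array median. Of the 17 members recomputed, 9 kept their sign wherever they had a value (Me3 had none with the filter on all 8 arrays), and 41 of 339 values, in 8 members, changed it. Blocks, filters and variance models leave a difference as it is by construction, so only the 241 values not equal to the reported one could change sign. The values of changed sign were Pklr -0.0052, Pcx -0.0011, Aldh3a2 -0.026 and Idh3g -0.017 with normexp, and -0.0060, -0.00067, -0.027 and -0.018 with the authors' table. With quantile normalization they were Pklr -0.023, Pcx -0.028, Pdk2 -0.0022, Ldha -0.015, Acss1 0.015, Aldh3a2 -0.011 and Idh3g -0.039, with the array median Acss1 0.11, and with the mean of all probes Ldha -0.022. Within slide 1 they were Pklr -0.34, Pcx -0.021, Pdk2 -0.020, Me2 -0.15, Aldh3a2 -0.043 and Idh3g -0.046, and within slide 2 Acss1 0.31. With an array left out, Pklr ran from -0.20 to 0.22, Pdk2 from -0.059 to 0.17, Me2 from -0.083 to 0.18, Ldha from -0.057 to 0.19, Acss1 from -0.21 to 0.045 and Aldh3a2 from -0.057 to 0.20. The cause of these changes was not tested. Me3, near background, had the largest SE of the tested members (0.50).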

Other observations

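Several members differed in sign between the slides, each with 2 arrays of either genotype, and the difference between slides was not tested. Acss1 differed by -0.41 within slide 1 and 0.31 within slide 2, Pklr by -0.34 and 0.36, Pdk1 by -0.25 and 0.47, and Me2 by -0.15 and 0.26. Idh3a and Fh1 had the other order, with 0.53 and -0.22 for Idh3a and 0.26 and -0.14 for Fh1. Aldh9a1, Acyp2 and Aldh1b1 were nearer each other on the slides, at 0.39 and 0.39, 0.33 and 0.42, and 0.49 and 0.36.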
